A study of Mus musculus with 7 samples.

Results

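The cytosolic ribosomal protein genes of mouse β-cells were taken from a count table of 35013 gene symbols by their names. Symbols that begin with Rpl or Rps and a number, those of the P proteins (Rplp0, Rplp1 and Rplp2) and Rpsa gave 94 rows, after 296 rows with -ps in the symbol, the mark of a processed pseudogene, and 9 rows of S6 kinase genes had been dropped. Of these, 83 had a mean of at least 10 CPM, counts scaled to a common library total, over the 7 libraries and are the members described here. They comprised 31 proteins of the small subunit, 41 of the large subunit, the 3 proteins of the stalk, 3 coding paralogs (Rpl22l1, Rpl36al and Rps27l), 4 rows annotated as pseudogenes (Rpl37rt, Rps12l1, Rps3a2 and Rps4l) and Rpl7l1, a factor of ribosome assembly that shares the name. The members with the lowest means were Rpl27 at 12.3 CPM and Rps12 at 17.1 CPM. These rows held only 12.8% and 5.75% of the counts of the gene and its near-identical copies over the 7 libraries. Most of the rest was given to the copies Rpl27-ps3 and Rps12-ps3, so the low means are not a level of expression of the whole family. Just outside the limit lay Rpl5 at 9.84, Rps3a3 at 6.92, Rps27rt at 6.64, Rpl12 at 5.39 and Rps19bp1 at 5.11 CPM, so 75 of the 77 subunit genes listed for the core ribosome were members, without Rpl5 and Rpl12.

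The study compared sorted pancreatic β-cells of 2 KO_db/db, 2 db/db and 3 db/+ mice by poly-A RNA-seq, with 1 library per mouse. KO_db/db mice carried RIP-Cre Herr, with Cre driven by an insulin promoter, 2 floxed alleles of Aldh1a3 (fl/fl), which encodes a retinaldehyde dehydrogenase raised in failing β-cells, the tdT fl/+ reporter and Lepr db/db. The db/db controls had the same alleles except Aldh1a3 fl/+, and the lean controls were Aldh1a3 fl/+ with Lepr db/+. All 3 groups thus carried Cre, the reporter and at least 1 floxed Aldh1a3 allele, and islets came from fasted mice. The labels give neither age nor sex, and the study's methods describe adult mice of both sexes. Loss of the leptin receptor makes db/db mice obese and diabetic, so the db/+ comparison spans the whole diabetic state rather than 1 change in the β-cell. The 2 groups with Lepr db/db are called diabetic below for that genotype only. The paper reports that KO_db/db mice had fasting glucose similar to db/+, and lower refed glucose and better glucose tolerance than db/db.

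Ribosomal proteins and ribosomal RNA build the small subunit, which reads the mRNA, and the large subunit, which joins amino acids. The genes are among the most strongly expressed of any cell, their products are needed in equal number, and many of their mRNAs start with a pyrimidine tract that places their translation under control of mTORC1. β-cells depend on this machinery to make proinsulin, and the mammalian genome holds very many reverse-transcribed copies of ribosomal protein mRNAs, which makes the assignment of short reads to them difficult.

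The libraries held between 27496645 and 35852785 counts. Aldh1a3, the targeted gene, stood at 4.93 and 7.90 CPM in KO_db/db, 99.3 and 195 in db/db, and 0.205, 0.0727 and 0.584 in db/+, so db/db lay above both other groups and the KO_db/db libraries lay above db/+. Of KO_db/db counts, 17.6% and 1.99% fell on markers of pancreatic acinar cells, against at most 0.0572% in any other library. All 12 β-cell markers were detected in every group, but relative to db/+ edgeR called 11 of them lower in db/db and 8 lower in KO_db/db. The summed level of 3 δ-cell markers was lower in db/db (87.7 to 170 CPM) than in KO_db/db (518 to 647 CPM) and db/+ (378 to 2332 CPM). That of 5 lymphocyte markers was 1.30 to 2.74 CPM in db/db, 19.8 to 39.7 in KO_db/db and 21.2 to 36.1 in db/+, and that of 6 macrophage markers was 21.4 to 33.4 CPM in KO_db/db, 55.9 to 74.2 in db/db and 32.7 to 56.9 in db/+. The part of β-cell identity genes and of these other cells in the results below was not tested.

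The 83 members took 1.42% and 1.89% of all counts in KO_db/db, 2.29% and 2.62% in db/db, and 1.60%, 1.65% and 1.50% in db/+. The db/db libraries had the largest shares, and those of KO_db/db and db/+ overlapped. Acinar enzymes and insulin fill so much of these libraries that the share was also taken without acinar, Reg family and insulin genes. It was then 2.46% and 2.54% in KO_db/db, 2.99% and 3.35% in db/db, and 2.36%, 2.46% and 2.35% in db/+. The order of the groups was kept, and the KO_db/db libraries moved together. Group means were then 2.50% ± 0.0523 (SD, n = 2) for KO_db/db, 3.17% ± 0.253 (SD, n = 2) for db/db and 2.39% ± 0.0610 (SD, n = 3) for db/+. In bulk libraries such as these, fewer cells with a transcript and less of it per cell cannot be told apart.

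**Figure D1:**
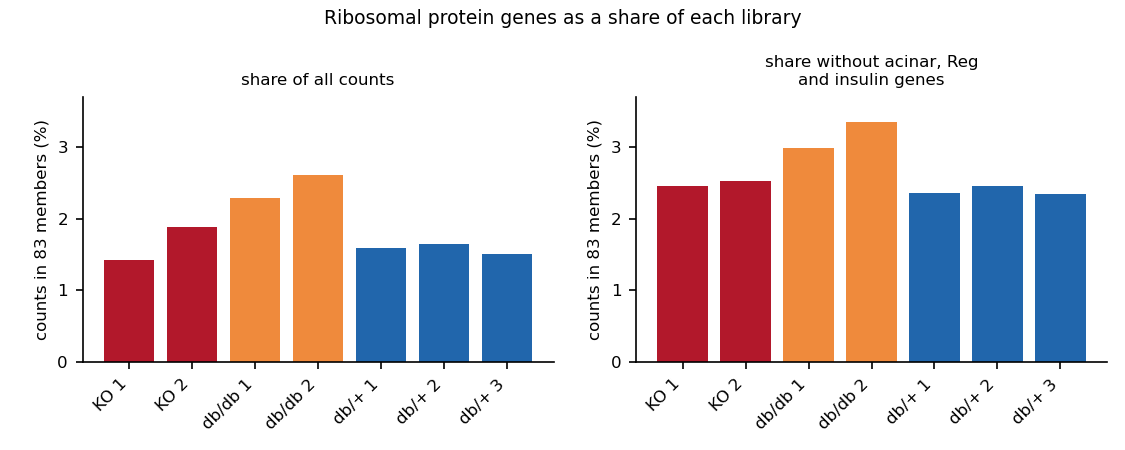
Share of each library's counts in the 83 ribosomal protein genes, in percent, over all counts (left) and without acinar, Reg family and insulin genes (right), with 1 bar per mouse. The 2 db/db libraries are highest in both panels, at 2.29% and 2.62% on the left and 2.99% and 3.35% on the right.

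By group means on the scale of TMM, which sets library sizes so that most genes do not move, 58 members were highest in db/db, 23 in db/+ and 2 in KO_db/db, and 63 were lowest in KO_db/db. This order was not taken over all genes, so the counts have no share of all genes beside them. Rps13, which is among the 58, passed the limit of 10 CPM only through its db/db libraries. In the fits across all genes, 82 members passed the filter on low counts in each comparison. Rps3a2, which is among the 58 highest in db/db, did not, since it was at 159 CPM in db/db mouse 1 and at most 0.163 CPM in any other library. The 3 comparisons share libraries, so their results are not independent. Of the 82 members, 61 were called in none of the comparisons, 12 were called lower only in KO_db/db against db/+ and 4 higher only in db/db against db/+.

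The comparison of KO_db/db with db/db asks what loss of Aldh1a3 did in diabetic β-cells. Members were lower in KO_db/db by a small and even amount: 77 of 82 had a negative log2 fold change, and the median was -0.30 (quartiles -0.38 and -0.20) against -0.02 over all 13486 genes tested. The libraries did not overlap, with KO_db/db lower, for 65 of the 82 members (79.3%), where 30.2% of all genes did so, and they did so with KO_db/db higher for 1 member, where 27.3% of all genes did. Members come from the same few libraries and can move together, so counts of members are not independent observations here or below. The median member level was 176 and 176 CPM in KO_db/db and 201 and 236 in db/db. In db/+ it was 200, 213 and 180 CPM. Few of these differences passed a test in a design of 2 mice against 2. By edgeR's quasi-likelihood test with an adjusted p under 0.05 over all genes, 0 members were higher and 1, Rps13, was lower. Of all genes 0.319% were called, and Rps13 passed the limit of 10 CPM only through its db/db libraries. At an unadjusted p under 0.05, 17 members were lower (20.7%, against 9.85% of all genes) and 1 was higher (against 11%). DESeq2 called 8 of these 82 members lower and 0 higher, where it called 4.69% of all genes lower and 5.48% higher. It also called Rps3a2 lower, which reached the level limit through db/db mouse 1 alone.

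**Figure D2:**
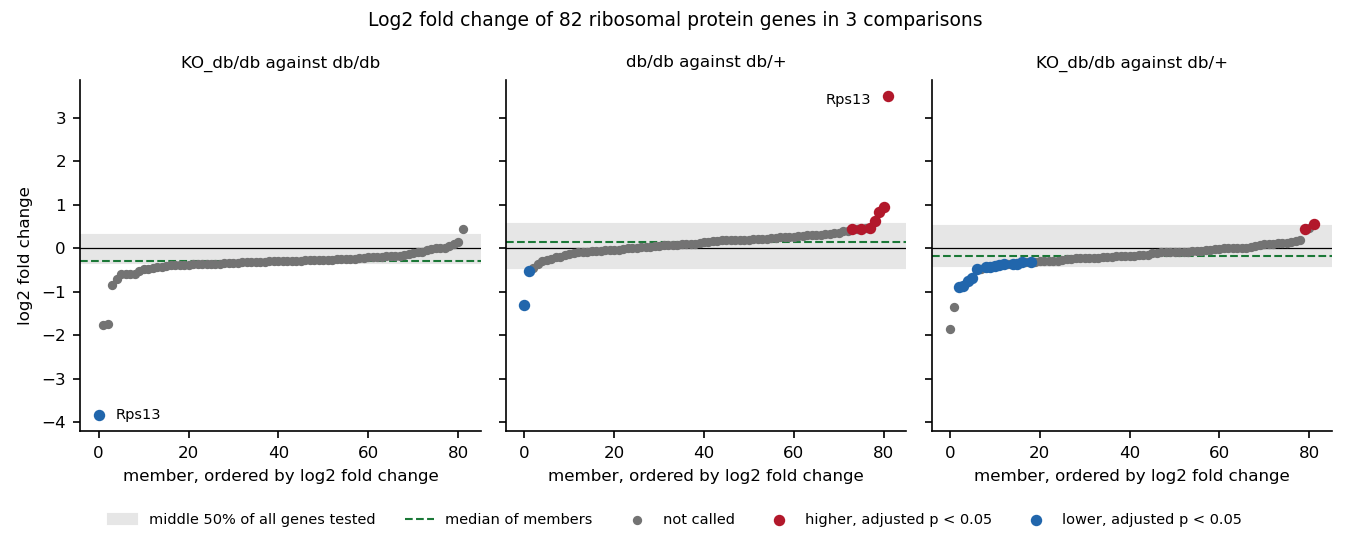
Log2 fold change of the 82 tested ribosomal protein genes, ordered within each comparison, with called genes (adjusted p under 0.05, edgeR) in colour, the members' median as a dashed line and the range between the quartiles of all genes tested in grey. Most points lie close to the members' own median, which is -0.30, 0.13 and -0.18 from left to right, and Rps13 stands apart at -3.85 and 3.50.

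The small subunit, the large subunit and the stalk differed little in this comparison, with medians of -0.31 over 31 genes, -0.28 over 41 genes and -0.38 over 3 genes. Rps15a, a small subunit protein, was at 79.5 and 81.0 CPM in KO_db/db, 117 and 129 in db/db, and 107, 110 and 95.6 in db/+. Its log2 fold change of -0.60 (standard error, SE, 0.13) had an adjusted p of 0.116 in edgeR, the lowest after that of Rps13, and it passed with DESeq2 (0.00655), without the filter (0.0340) and with all 7 libraries in 1 fit (0.0308). Rplp0, the base of the stalk to which the elongation factors bind, was at 577 and 532 CPM in KO_db/db and at 785 and 834 in db/db, a log2 fold change of -0.53 that did not pass in edgeR (adjusted p = 0.201) and passed in DESeq2 (adjusted p = 0.0108). Rpsa, a small subunit protein also known as the laminin receptor, was at 582 and 554 CPM in KO_db/db, 696 and 703 in db/db, and 750, 732 and 718 in db/+. Rps6, the substrate of S6 kinase, was at 258 and 240, 281 and 291, and 259, 248 and 229 CPM in the same order. By edgeR with TMM neither was called in any comparison, although DESeq2 called Rpsa lower in KO_db/db than in db/+ (adjusted p = 0.000112). The db/db libraries of Rps6 lay above all others whereas those of Rpsa lay between the other groups.

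The size of the difference moved with the scale. Library totals alone in place of TMM were an alternative chosen after the data were seen. With them the median of all genes moved to -0.28 and that of the members to -0.56. The difference of these medians was -0.28 on either scale. A change of scale moves all genes by nearly the same amount, so this difference could hardly change and is no test. On library totals 4 members were called, each lower (4.88%), where 9.05% of all genes were called and 6.55% were lower. Without db/db mouse 1, 0 members and 0 genes were called, while 3 members were lower without KO_db/db mouse 2 and 3 without db/db mouse 2. Without KO_db/db mouse 1, the library with most acinar RNA, the median was -0.30 and 1 member was lower, as they were with acinar and Reg genes left out of the fit.

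Rack1, a signalling scaffold on the small subunit, and Fau, a small subunit protein made as a ubiquitin-like fusion, are ribosomal proteins outside the naming rule. They had log2 fold changes of -0.37 and -0.28 in KO_db/db against db/db and were called by edgeR with TMM in no comparison.

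The comparison of db/db with lean db/+ describes the diabetic β-cell. With TMM the members moved less than the genome at large. Of 82 members 9 were called (10.98%), 7 higher and 2 lower, where 37.8% of all 13406 genes were, 19.9% higher and 18% lower. Among the higher members was Rps13, which passed the limit of 10 CPM only through db/db. The median log2 fold change was 0.13 against 0.01 over all genes, and the median absolute value was 0.19 against 0.50. The libraries did not overlap for 34 members with db/db higher (41.5%, against 33.3% of all genes) and for 8 with db/db lower (9.76%, against 29.9%). DESeq2 called 14 of the 82 members higher and 3 lower, and Rps3a2 higher as well. It called 19.8% of all genes higher and 17.8% lower. With library totals in place of TMM, which moved the median of all genes to 0.50, 63 members were higher and 1 was lower. On that scale members were called more often than the genome, 78.0% of them against 50.5% of all genes (44.5% higher and 5.97% lower), so the order of the shares depended on the scale.

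Rpl4, a large subunit protein whose long loop lines the peptide exit tunnel, was at 864 and 922 CPM in KO_db/db, 1058 and 1170 in db/db, and 618, 630 and 593 in db/+. Both diabetic groups lay above all 3 lean libraries without overlap. Over db/+, db/db had a log2 fold change of 0.83 (SE 0.12, adjusted p = 0.00305, edgeR), which passed the threshold in all 15 alternatives run. Rpl4 (ENSMUSG00000032399.8) lies on chromosome 9 of GRCm38, plus strand, from 64173375 to 64178666. It was 1 of 2 members called higher in both diabetic groups against db/+.

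Rpl23, Rpl6 and Rpl10 also rose in db/db, and each was near the lean level in KO_db/db. Rpl23, a large subunit protein at the interface with the small subunit that can also bind Mdm2, was at 270 and 256 CPM in KO_db/db, 353 and 390 in db/db, and 271, 272 and 248 in db/+ (0.47, adjusted p = 0.0181, edgeR). Rpl6, another large subunit protein, was at 401 and 420, 489 and 561, and 389, 383 and 378 CPM (0.43, adjusted p = 0.0291), and the X-linked Rpl10, which completes the catalytic core late in assembly, at 91.7 and 135, 146 and 170, and 110, 107 and 126 CPM (0.45, adjusted p = 0.0337). Over these 3 genes the db/db libraries were the highest, but edgeR did not call their direct difference from KO_db/db, while DESeq2 called that of Rpl23. Their calls were lost without db/db mouse 2 (adjusted p = 0.0602, 0.0967 and 0.131 by edgeR for Rpl23, Rpl6 and Rpl10), without db/+ mouse 1 (0.0705, 0.103 and 0.116) and without db/+ mouse 2 (0.0572, 0.0939 and 0.111), and that of Rpl6 also without db/+ mouse 3 (0.0605). That of Rpl10 was lost also with all 7 libraries in 1 fit (0.0712). By library, Rpl10 received only 13.9% to 19.1% of the counts of the gene and its near-identical copies. Most of the rest went to the copy Rpl10-ps3, at 533 to 860 CPM, which has the same open reading frame.

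Of the 2 members that fell in db/db, Rplp1 belongs to the stalk. It was at 268 and 220 CPM in KO_db/db, 316 and 326 in db/db, and 461, 480 and 431 in db/+. All 4 diabetic libraries lay below all 3 lean ones, with a log2 fold change of -0.54 (SE 0.11, adjusted p = 0.0114, edgeR) in db/db against db/+ and -0.90 (SE 0.14, adjusted p = 0.00462) in KO_db/db against db/+. The first of these calls was lost without db/+ mouse 1 (adjusted p = 0.0539, edgeR) and with library totals as the scale, where the value was -0.04. Rplp1 (ENSMUSG00000007892.8) lies on chromosome 9 of GRCm38, minus strand, from 61913284 to 61914542. Its partners in the stalk differed from it: Rplp2 was at 171 and 162, 201 and 211, and 213, 213 and 201 CPM, and Rplp0, given above for the diabetic groups, was at 621, 635 and 674 CPM in db/+.

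Ratios taken within a library do not depend on the scale, although they compare counts and not molecules. Rplp1 over Rplp0 was 0.466 and 0.414 in KO_db/db, 0.403 and 0.391 in db/db, and 0.743, 0.755 and 0.640 in db/+, so the diabetic groups lay apart from the lean one. Rplp2 over Rplp0 was 0.296 and 0.304, 0.255 and 0.253, and 0.342, 0.336 and 0.298, with KO_db/db and db/+ overlapping. Rpl4 over Rpl3, which encodes another protein of the large subunit core, was 2.09 and 2.07, 2.33 and 2.41, and 1.37, 1.31 and 1.38. For Rplp1 and Rpl4 the gap between lean and diabetic libraries exceeded the spread of every group.

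**Figure D3:**
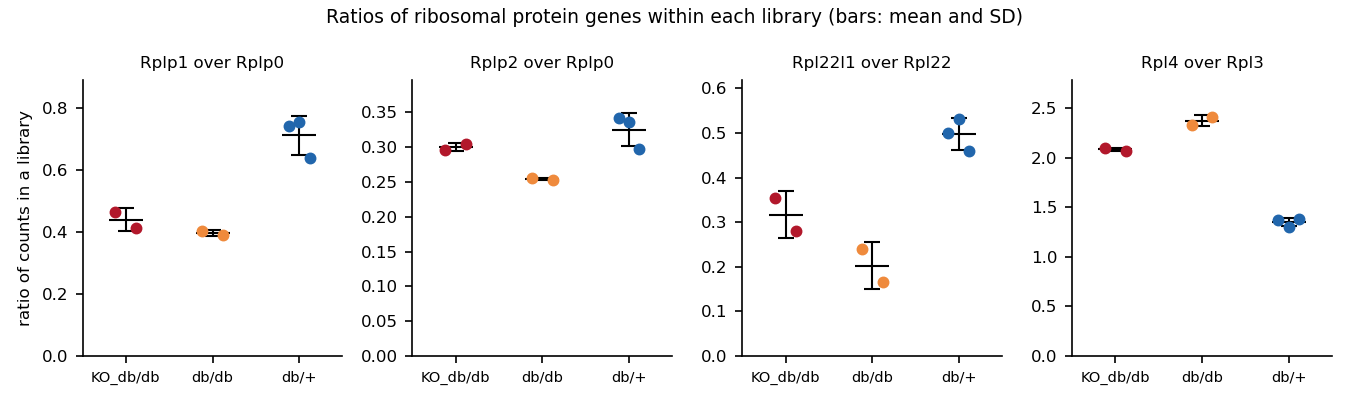
Ratios of counts of ribosomal protein genes within each library, with 1 point per mouse and bars for the mean and SD of each group. Rplp1 over Rplp0 and Rpl22l1 over Rpl22 are highest in the 3 db/+ mice, and Rpl4 over Rpl3 is lowest there, at 1.31 to 1.38 against 2.07 to 2.41 in the other 4 mice.

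The other member that fell was Rpl22l1, a paralog that can take the place of Rpl22 in the large subunit and is also known as a regulator of splicing. It was at 22.8 and 22.1 CPM in KO_db/db, 18.1 and 15.6 in db/db, and 40.9, 48.6 and 33.8 in db/+, and the 3 groups did not overlap. The log2 fold change was -1.31 (SE 0.18, adjusted p = 0.00243, edgeR) in db/db and -0.86 (SE 0.16, adjusted p = 0.00786) in KO_db/db against db/+, each past the threshold in all 15 alternatives. In KO_db/db against db/db it was 0.43 (adjusted p = 0.220), the only member with a positive change at an unadjusted p under 0.05. Rpl22 itself was at 64.5 and 79.1, 75.5 and 93.8, and 81.8, 91.3 and 73.3 CPM and was called by edgeR with TMM in no comparison. The ratio of Rpl22l1 to Rpl22 was 0.354 and 0.280 in KO_db/db, 0.240 and 0.166 in db/db, and 0.500, 0.532 and 0.460 in db/+. Rpl22l1 (ENSMUSG00000039221.10) lies on chromosome 3 of GRCm38, plus strand, from 28805436 to 28807424.

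The other coding paralogs had no adjusted p under 0.05 in the TMM-scaled edgeR fits of each pair of groups. Rps27l, a paralog of Rps27 known as a p53 target, was at 25.4 and 26.8 CPM in KO_db/db, 38.7 and 41.2 in db/db, and 33.1, 34.6 and 29.6 in db/+. Its log2 fold change between the diabetic groups, KO_db/db over db/db, was -0.60 (SE 0.13, adjusted p = 0.122, edgeR), and it passed with DESeq2 (adjusted p = 0.0254), without the filter on low counts (0.0460) and with all 7 libraries in 1 fit (0.0354). Rps27 itself ran between 189 and 268 CPM with all groups overlapping. Rpl36al, a retroposed coding copy of the X-linked Rpl36a, stayed between 118 and 156 CPM and Rpl36a between 52.2 and 75.6 CPM. Rpl3l, a form of striated muscle, and Rpl10l, a form of the testis, had 0 counts in all 7 libraries, which allows up to 0.109 CPM in the shallowest library (3 counts, counting error only), and Rpl39l, also a testis form, had 3 counts in all. Rps4l, annotated as a transcribed processed pseudogene, was at 30.8 and 29.9 CPM in KO_db/db, 71.3 and 39.9 in db/db, and 31.1, 20.9 and 32.5 in db/+. Its rise in db/db against db/+ (0.95, SE 0.28, adjusted p = 0.0363, edgeR) rested on db/db mouse 1, without which it was 0.48 (adjusted p = 0.195), and the call was also lost without each of the db/+ mice 1, 2 and 3 (0.0730, 0.0910 and 0.0522). The parent Rps4x ran from 322 to 468 CPM and was not called with TMM.

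The comparison of KO_db/db with lean db/+ asks how far the knockout β-cells stood from the lean state. Of 82 members 16 were called (19.5%), 2 higher and 14 lower, where 38.4% of all 13228 genes were called, 20.5% higher and 17.9% lower. The median was -0.18 against 0.00 over all genes, and 64 of 82 members had a negative log2 fold change. The libraries did not overlap for 41 members with KO_db/db lower (50% of them, against 32.3% of all genes) and for 6 with KO_db/db higher (7.32%, against 31.7%). At an unadjusted p under 0.05, 25 members were lower (30.5%, against 23.6% of all genes). Rpl4 was among the higher ones (0.55, SE 0.14, adjusted p = 0.0202, edgeR). DESeq2 called 2 members higher and 20 lower, where it called 21% of all genes higher and 17.8% lower.

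The 14 lower members were spread over the ribosome, with 5 of 31 small subunit proteins, 5 of 41 large subunit proteins, 2 of 3 stalk proteins, 1 coding paralog and Rpl7l1. Rpl39, a small protein that lines the exit tunnel of the large subunit, was at 59.6 and 66.0 CPM in KO_db/db, 77.1 and 93.5 in db/db, and 108, 111 and 103 in db/+. The 3 groups did not overlap, and the log2 fold change was -0.77 (SE 0.09, adjusted p = 0.00173, edgeR) in KO_db/db and -0.36 (adjusted p = 0.0556) in db/db against db/+. Rpl7l1 was at 25.8 and 29.6 CPM in KO_db/db, 49.9 and 35.0 in db/db, and 47.4, 40.5 and 45.7 in db/+, so it was lower in KO_db/db than in every other library (-0.68, SE 0.12, adjusted p = 0.00579 against db/+, edgeR). Rps21, a small subunit protein, was at 113 and 121, 138 and 147, and 171, 177 and 148 CPM (-0.49, adjusted p = 0.0144). Rps24, Rpl38 and Rpl41 were lower by similar amounts, -0.43, -0.43 and -0.41 with adjusted p of 0.0465, 0.0111 and 0.0428 from edgeR. The 6 others, Rpl37a, Rps15a, Rps27a, Rps29, Rpl15 and Rplp2, fell by between 0.32 and 0.38 on the log2 scale.

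**Figure D4:**
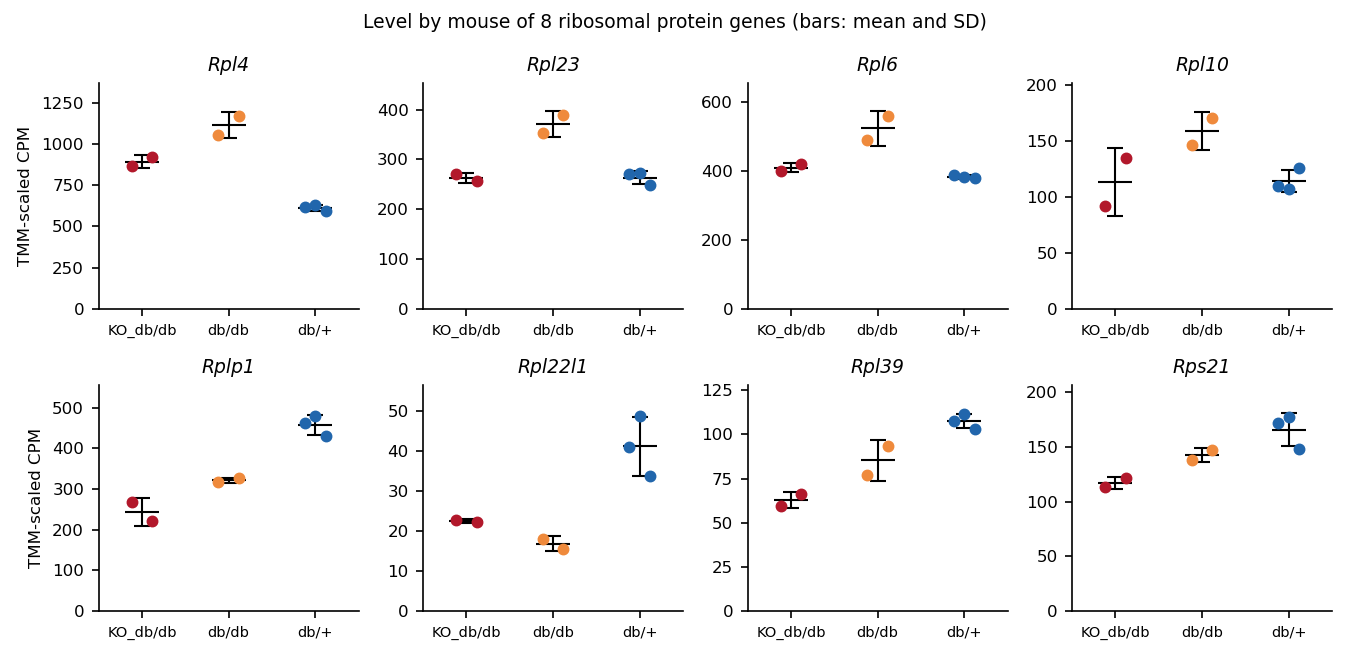
TMM-scaled CPM of 8 called ribosomal protein genes, with 1 point per mouse and bars for the mean and SD of each group. Rpl4 is lowest in the 3 db/+ mice, Rpl23, Rpl6 and Rpl10 are highest in the 2 db/db mice, and Rplp1, Rpl22l1, Rpl39 and Rps21 are highest in db/+, with Rps21 of db/+ mouse 3 (148 CPM) next to db/db mouse 2 (147 CPM).

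Many of these small falls depended on scale and on single mice. With library totals as the scale, 2 members were lower and 2 higher, where 27.4% of all genes were called, 4.91% lower and 22.5% higher. The members' median became 0.04 and that of all genes 0.21. The members were then 0.17 below all genes, and 0.18 below with TMM. That distance could hardly change, since a new scale moves all genes by nearly the same amount. Without KO_db/db mouse 1 or 2, 4 or 8 members were lower and 1 was higher. Without db/+ mouse 1 or mouse 2, 6 were lower and 0 higher, and without db/+ mouse 3, 16 were lower and 1 higher. Of all genes, the fits without db/+ mouse 1, 2 or 3 called 3434, 3549 and 4725. The calls of Rplp1 and Rpl22l1 held in all 15 alternatives. The call of Rpl4 was lost without KO_db/db mouse 2 (adjusted p = 0.0811, edgeR), db/+ mouse 1 (0.0745) or db/+ mouse 2 (0.0544). Without KO_db/db mouse 1 the calls of Rps21 (0.0852), Rps24 (0.130), Rpl38 (0.0607) and Rpl41 (0.0787) were lost too, and those of Rps21, Rps24 and Rpl41 also without db/+ mouse 1 (0.0517, 0.109 and 0.103). For Rps24 and Rpl41 the same held without KO_db/db mouse 2 (0.113 and 0.126) and db/+ mouse 2 (0.114 and 0.0960), and for Rpl41 without db/+ mouse 3 (0.0707). Rps24 passed no more with RLE factors (0.0503), nor Rpl41 without the filter on low counts (0.0641).

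Single ribosomal protein genes carry a further uncertainty, since kallisto assigns a read that fits several transcripts by estimation. In the GENCODE transcripts of GRCm38, 30 of the 83 members had over 50% of their 31-base words in another gene, with a median of 44.5% and a range from 1.95% to 100%. For 66 members the table held at least 1 copy, a row with -ps in the symbol or at least 50% of the member's words. The share of a family's counts that went to the member varied by over 10 percentage points between libraries in 11 of these 66 families, and for several of them the libraries fell into discrete levels.

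Rps13, the only member called in KO_db/db against db/db, was in such a family. It was at 4.56 and 4.98 CPM in KO_db/db, 66.5 and 72.1 in db/db, and 6.23, 6.47 and 5.40 in db/+, a log2 fold change of -3.85 (SE 0.16, adjusted p = 0.0142, edgeR) and, for db/db against db/+, of 3.50 (SE 0.13, adjusted p = 7.85e-05). Rps13-ps1, an intronless copy, was at 173 and 178 CPM in KO_db/db, 141 and 143 in db/db, and 215, 199 and 186 in db/+, lowest where Rps13 was highest. The member received 2.57% and 2.72% of the family's counts in KO_db/db, 32.1% and 32.2% in db/db, and 2.82%, 3.15% and 2.82% in db/+. The sum of the family was 177 and 183, 207 and 224, and 221, 206 and 192 CPM, and with copies summed the log2 fold changes were -0.25 (adjusted p = 0.357, edgeR) and 0.04 (adjusted p = 0.813). The call in KO_db/db against db/db was also lost without db/db mouse 1 (adjusted p = 0.0581, edgeR), where the value was -3.90. Whether the gene or its copy was transcribed cannot be told apart from these counts.

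The open reading frames of the pair differ at 2 of 456 bases, and the 30 bases around the first show 1 place where reads of the coding part separate them, beside the second and the parts of the transcripts that are not shared. The same holds for Rps3a1 and Rps3a2 (4 of 792 aligned bases), Rps7 and Rps7-ps3 (3 of 585) and Rps18 and Rps18-ps6 (4 of 459). Sequences are from GENCODE transcripts of GRCm38, on the strand of the gene, with the differing base in capitals.
Rps13, chr7:116331505-116334195, minus strand: gcgggtgctcccaccTaattggaaatatga
Rps13-ps1, chr8:87047689-87048226, plus strand: gcgggtgctcccaccCaattggaaatatga
Rps3a1, chr3:86137940-86142702, minus strand: tgaagtgagccttgcTgatctacagaatga
Rps3a2, chr14:88123017-88123808, minus strand: tgaagtgagccttgcCgatctacagaatga
Rps7, chr12:28630854-28635953, minus strand: cgagcgccaagatcgTgaagcccaatggcg
Rps7-ps3, chrX:152909505-152910155, minus strand: cgagcgccaagatcgGgaagcccaatggcg
Rps18, chr17:33951999-33956001, minus strand: agaactcacggaggaTgaggtggagcgagt
Rps18-ps6, chr13:97760072-97760632, minus strand: agaactcacggaggaCgaggtggagcgagt
Counted from 1 at the first base of the open reading frame, the substitutions shown are T411C in Rps13, T216C in Rps3a1, T26G in Rps7 and T186C in Rps18, each written with the base of the gene first. The frames of Rps6 and Rps6-ps4 were identical over 750 bases and those of Rpl10 and Rpl10-ps3 over 645 bases, so that no base inside them separates the rows.

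Rps2 and Rps18, proteins at the mRNA entry and in the head of the small subunit, showed the largest swings. Rps2 was at 1.87 and 176 CPM in KO_db/db, 402 and 206 in db/db, and 498, 247 and 228 in db/+, with 0.396% and 43.2%, 99.1% and 43.4%, and 99.5%, 41.3% and 39.5% of the family's counts. Rps18 was at 2.89 and 110, 231 and 152, and 213, 120 and 107 CPM, with 1.25% and 49.4%, 99.96% and 51.1%, and 100%, 50.2% and 49.7% of its family. In both families KO_db/db mouse 1 was lowest and the first db/db and db/+ mice were highest, so the swing ran within every group. Their log2 fold changes in KO_db/db against db/db, -1.76 (SE 1.60) and -1.74 (SE 1.35), were not called, and with copies summed they were 0.02 and -0.20. The sums of the Rps2 family, 473 and 409, 406 and 474, and 500, 597 and 578 CPM, did not follow the swings.

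**Figure D5:**
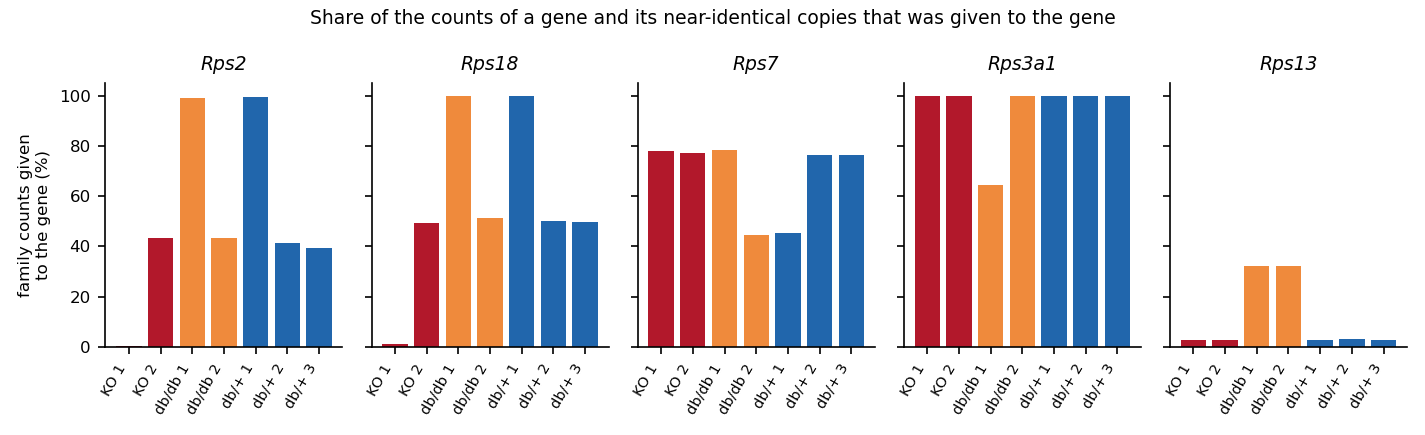
Percent of the counts of a gene and its near-identical copies that was given to the gene, with 1 bar per mouse, for Rps2, Rps18, Rps7, Rps3a1 and Rps13. Rps2 and Rps18 are near 0 in KO_db/db mouse 1 and near 100 in db/db mouse 1 and db/+ mouse 1, whereas Rps13 is raised in both db/db mice only, at 32.1% and 32.2%.

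Rps7, a small subunit protein that can also bind Mdm2, received 78.0% and 77.0% of its family in KO_db/db, 78.3% and 44.6% in db/db, and 45.3%, 76.2% and 76.5% in db/+, with Rps7-ps3 taking most of the rest. Rps3a1, also of the small subunit, received 64.3% in db/db mouse 1 and over 99% in all others, with Rps3a2 at 159 CPM and Rps3a3 at 40.6 CPM in that mouse alone. Summed over copies, 0 members were called in KO_db/db against db/db, 7 remained called in db/db against db/+ (5 higher, without Rps13 and Rpl10) and 18 were called in KO_db/db against db/+, where Rps12 and Rps12l1, which share their copies, joined the lower ones. Among all genes, the same fits called 41, 5080 and 5108. Rplp1, Rpl22l1, Rpl4 and Rpl39 were near their values without summing, for instance -0.90 for Rplp1 and -0.77 for Rpl39 in KO_db/db against db/+. Summing could hardly move them and is no test of their calls. Rplp1, Rpl22l1 and Rpl39 already held 99.95%, 100% and 99.99% of their families' counts, and Rpl4 had no listed copy.

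The start of a ribosomal protein mRNA is a pyrimidine tract read by the mTORC1 pathway, and their promoters are known for sites of ETS factors. RefSeq promoters of GRCm38.p6, 250 bases before to 50 after the start, were matched by symbol to 60 of the 83 members. The letters CCGGAAG, the core of an ETS site, were found on either strand in 25 of the 60 (41.7%), against 9.93% of 27025 genes. The letters CTTTC, on the gene's strand and within 10 bases before to 20 after the start, were in 13 of the 60 (21.7%), against 4.43% of all genes. These windows are shown for the 3 members called lower in KO_db/db against db/+ that held CTTTC, in capitals, to show the tract beside the start.
Rpl15, chr14:18270967-18270996, minus strand: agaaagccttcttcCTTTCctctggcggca
Rpl38, chr11:114668570-114668599, plus strand: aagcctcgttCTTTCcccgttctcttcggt
Rplp2, chr7:141447641-141447670, plus strand: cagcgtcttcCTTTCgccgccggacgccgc
A match is a description of the letters only, and of the 21 called members 16 had an entry. Of these only the 3 shown held CTTTC. The other members lower in KO_db/db against db/+ with an entry did not (Rpl22l1, Rpl37a, Rpl39, Rpl41, Rpl7l1, Rps15a, Rps21 and Rps24). Neither did the members called higher. Only the exact letters CTTTC were searched, so a window without them can hold another pyrimidine run, as that of Rpl22l1 does. A link between the tract and the falls was not tested.

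Genes that act with the ribosome were described from lists, counted over the genes tested. In KO_db/db against db/db none of 20 elongation factor and other genes with a pyrimidine tract, 29 initiation factors, 26 mTORC1 and S6 kinase genes, 20 genes of ribosomal DNA transcription, 52 assembly factors and 11 chaperones of ribosomal proteins was called by edgeR. At an unadjusted p under 0.05, 0, 3, 3, 0, 2 and 1 of them were higher and 2, 0, 1, 2, 3 and 0 lower, and DESeq2 called 0, 1, 1, 0, 0 and 0 higher and 2, 0, 0, 0, 0 and 0 lower. Of all genes, edgeR called 0.319%, and at an unadjusted p under 0.05 11% were higher and 9.85% lower. DESeq2 called 5.48% of all genes higher and 4.69% lower. In lists this short, such counts do not set a list apart from all genes. The medians were -0.12, -0.05, 0.13, -0.25, -0.14 and 0.00, so none was as low as the -0.30 of the ribosomal proteins.

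In db/db against db/+ the lists moved in both directions, beside 19.9% of all genes higher and 18% lower. Of the genes with a pyrimidine tract 5 of 20 were higher and 0 lower, among them Eif4b, a helper of the initiation helicase, at 380 and 475 CPM in db/db against 182, 204 and 196 in db/+ (log2 fold change 1.11, adjusted p = 0.00178, edgeR), Pabpc1, which binds the poly-A tail (0.61, adjusted p = 0.00674), and Eef2, which moves the ribosome along the mRNA (0.62, adjusted p = 0.0198). Of 29 initiation factors 5 were higher and 6 lower, with Eif4g3, Eif5b and Eif3a among the higher. Of 26 mTORC1 genes 7 were higher and 3 lower. Larp1, which binds the pyrimidine tract and holds back its translation, was at 136 and 129 CPM in KO_db/db, 103 and 120 in db/db, and 40.3, 41.3 and 49.4 in db/+, above the lean libraries in both diabetic groups (1.33 in db/db, adjusted p = 0.00110, and 1.60 in KO_db/db, adjusted p = 0.000639, edgeR). Ddit4, which inhibits mTORC1 under stress, was higher by 1.38 and Deptor, a subunit that restrains it, by 0.85.

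Of 20 genes of ribosomal DNA transcription 6 rose and 0 fell in the db/db mice, with Myc at 6.43 and 4.21 CPM against 1.11, 0.582 and 1.65 in db/+ (2.22, adjusted p = 0.00994, edgeR). Of 52 assembly factors 9 were higher and 5 lower. Ncl, nucleolin, was at 243 and 286 CPM in KO_db/db, 257 and 255 in db/db, and 124, 132 and 136 in db/+ (0.95 in db/db, adjusted p = 0.00123, and 1.03 in KO_db/db, adjusted p = 0.00132, edgeR), whereas Nop10, a small protein of H/ACA particles, had a value of -0.98. Of 11 chaperones, 3 were called, all lower (Ipo7, Aamp and Tsr2), and with library totals as the scale none of these calls remained (-0.11, -0.07 and 0.12, adjusted p = 0.467, 0.716 and 0.423 from edgeR). Ipo7, an importer of ribosomal proteins, was at 61.3 and 62.2 CPM in KO_db/db, 65.1 and 57.2 in db/db, and 92.5, 97.0 and 83.04 in db/+.

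In KO_db/db against db/+ the same lists had 3 of 20 higher and 1 lower (tract genes), 7 of 29 higher and 4 lower (initiation), 9 of 26 higher and 2 lower (mTORC1), 3 of 19 higher and 3 lower (ribosomal DNA), 7 of 52 higher and 8 lower (assembly) and 0 of 11 higher and 2 lower (chaperones), beside 20.5% and 17.9% of all genes. Eef1g, a subunit of the exchange factor of elongation, was at 248 and 282 CPM in KO_db/db, 461 and 420 in db/db, and 345, 361 and 386 in db/+, and it was the 1 tract gene that fell (-0.45, adjusted p = 0.0290, edgeR). Eif4g1, the scaffold of initiation, was at 323 and 245, 183 and 197, and 118, 104.5 and 139 CPM (1.24, adjusted p = 0.00281). Ubtf, the upstream binding factor of RNA polymerase I, rose by 0.90 (adjusted p = 0.00100) and Polr1b, a subunit of that polymerase, fell by 1.16 on the log2 scale (adjusted p = 0.00614, edgeR). In each of these comparisons with db/+, several of these calls rested on single libraries. That of Eef2 was lost without db/db mouse 2 and db/+ mouse 1 or 2 (adjusted p = 0.0673, 0.0940 and 0.0597 from edgeR), that of Myc without db/db mouse 1 (0.0509) and that of Eef1g without KO_db/db mouse 1 (0.132) and each db/+ mouse (0.0614, 0.0690 and 0.0567). Those of Aamp and Tsr2 were lost without each db/+ mouse, with adjusted p between 0.0524 and 0.140 from edgeR, and that of Tsr2 also without db/db mouse 1 (0.114).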

How the data were processed

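Poly-A RNA of sorted β-cells from 7 mice was measured by RNA-seq. The submitters' processing notes name bcl2fastq 2.19 and kallisto 0.44.0 on GRCm38; the annotation release is not given in the sources used here. The authors deposited expected counts per gene, estimated by kallisto, as whole numbers without normalization, for 35013 symbols. Totals ran from 27496645 to 35852785 counts, and intervals and the floor of 3 counts cover counting error only. Groups came from the sample labels, and p-values measure the spread between mice.

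Each pair of groups was fitted in R 4.3.3 with edgeR 4.0.16 (filterByExpr with a minimum count of 10, TMM, quasi-likelihood test, Benjamini-Hochberg over all genes tested, threshold 0.05). Levels are CPM with TMM factors from the 7 libraries together. DESeq2 1.42.0, the tool of the study, was an alternative. The fits were tested on simulated counts. Shared 31-base words and copies were read from GENCODE transcripts of GRCm38 (34707 symbols matched, 486 of them by a synonym), and promoters from RefSeq. Open reading frames are the longest from an ATG.

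The members and all gene lists were chosen with earlier results of these data known. Genes named were, in each comparison, the 8 largest rises and 8 largest falls among called members, always Rps13, Rpsa, Rps6, Rplp0 and the paralog pairs, and of other lists some of the 3 called genes of smallest adjusted p. Rps2, Rps18, Rps7, Rps3a1 and Rps3a2, the copies, Rps15a, Rplp2, the members named by their level and the 6 smallest falls in KO_db/db against db/+ were named after their values were seen. Alternatives were RLE factors, DESeq2, no filter, all 7 libraries in 1 fit, scaling without or removal of acinar and Reg genes, copies summed, a threshold of 0.01, members of at least 100 CPM, a replicate block, each library left out and, chosen after seeing the data, library totals as the scale. Replicates differed beyond sampling noise. Some genes that the rule covers are not reported here.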

Additional observations from a re-analysis of the deposited data

How the results depend on the processing

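The count of members called and the median log2 fold change were recomputed under 15 alternatives between the diabetic groups and 16 in each comparison with db/+. In the comparisons that include db/db, the DESeq2 counts hold Rps3a2, which the filter kept out of the main fits. In KO_db/db against db/db 1 member was lower; the count was 9 with DESeq2, 6 without the filter, 4 with all 7 libraries in 1 fit, 4 with library totals as the scale, and 0 with copies summed, with members of at least 100 CPM (68 of them) or at an adjusted p under 0.01. Leaving out 1 library gave 0 to 3. The genes called among all genes were 43, 1570 without the filter, 1401 with DESeq2, 1220 with library totals, 818 with 7 libraries in 1 fit, 22 with the block and 0 to 225 with a library left out. Against db/+, they fell from 5069 to 3331 and 3368 in db/db without db/+ mouse 1 or 2, and from 5081 to 3060 in KO_db/db without KO_db/db mouse 1. Against db/+, the db/db mice had 7 members higher and 2 lower. These became 15 higher with DESeq2, 63 higher and 1 lower with library totals, 1 lower among members of at least 100 CPM, 2 higher and 1 lower at 0.01, and 3 to 11 higher and 1 to 5 lower with a library left out. Against db/+, the KO_db/db mice had 2 higher and 14 lower. There was 1 higher with 7 libraries in 1 fit, 2 lower with library totals, and 0 higher and 4 lower at 0.01, and 0 to 1 higher and 4 to 16 lower with a library left out. Where that left 1 library in a group, it was taken to vary like the others.

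With library totals, chosen after seeing the data, the members' medians were -0.56, 0.63 and 0.041, the last reversed, as were Rpl39 (0.13) and Tsr2 (0.12) in db/db against db/+, and the share of called genes that were higher went from 39.5%, 52.5% and 53.4% to 27.6%, 88.2% and 82.05%. With copies summed, Rps2 in KO_db/db against db/db was 0.016. Under the other alternatives the medians kept their sign (-0.38 to -0.22, 0.04 to 0.23 and -0.20 to -0.15 with a library left out). Named members that were not called changed sign in 46 of 598 recomputed values. The cause of these changes was not tested.

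The mouse numbers are shared by the groups, and over all genes the deviations of mice of the same number were weakly correlated (between -0.13 and 0.09). Such a correlation only sees deviations that run the same way in both groups, so it cannot exclude a batch by number. For Rps2 and Rps18, mouse 1 of every group lay apart from the others in the share given to the gene. The labels name no batch, and whether one goes with the number was not tested. The fit with a replicate block, without db/+ mouse 3, called 9 members lower and 0 higher for KO_db/db over db/+, with a median of -0.20, so that the call of Rpl4 was lost there (adjusted p = 0.113, edgeR). For db/db over db/+ it called 6 higher and 2 lower, and between the diabetic groups 1 lower. With 2 or 3 mice a group, small shifts of single members could not be separated from the spread between mice.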
